A study of Mus musculus with 6 samples.

Results

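The 40 genes described here encode immediate early products and the proteins that switch mitogen-activated protein kinase (MAPK) signalling off again. They were taken by name from the 54532 genes of an expression table, each name matched 1 gene, and 39 of them were expressed highly enough to be tested. The table covers 6 RNA-seq libraries of primary ventricular cardiomyocytes of C57BL/6J mice aged 1 day, which expressed the cardiomyocyte markers examined. In the shGDF11 group (3 libraries), the cells carried a short hairpin RNA against Gdf11, which encodes growth differentiation factor 11, a TGF-beta family ligand. In the control group (3 libraries), they carried a vector hairpin (sh-Vector, labelled sh-nc). Hairpins were applied in both groups at a multiplicity of infection of 200, and the labels do not say if a group had 1 hairpin sequence or more. Total RNA was extracted with TRIzol 48 h later, so both groups had been exposed to a vector. The series concerns Gdf11 deficiency in the heart, and the comparison asks which transcripts differ between cells given a Gdf11 hairpin and cells given the control hairpin.

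Immediate early genes are transcribed without new protein synthesis, within minutes of a growth factor, cytokine or mechanical stimulus. Directly or through downstream kinases, the ERK, JNK and p38 kinases phosphorylate transcription factors that already sit at the promoters of these genes. Examples are CREB and the ternary complex partners of SRF. Many of the products are transcription factors, and FOS and JUN proteins pair to form the AP-1 complex. Others end the signal: dual-specificity phosphatases remove phosphate from the MAP kinases, Sprouty and SPRED proteins act on the RAS to RAF step, and ERRFI1 blocks the EGF receptor. In cardiomyocytes this programme is best known as an early response to stretch and to hypertrophic agonists.

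The libraries held 15686602 to 15982381 reads in listed genes in the shGDF11 group and 15267083 to 16152910 in the control group. Gdf11 had 0.614, 0.601 and 0.778 FPKM (fragments scaled to gene length and library depth) in the shGDF11 libraries, against 2.76, 2.30 and 2.31 FPKM in the control libraries. Its values did not overlap between the groups, and its log2 fold change was -1.34 ± 0.125 (SE, limma adjusted p = 0.000794). Fold changes throughout are shGDF11 minus control on log2(FPKM + 0.5), which understates the change of genes with low values. A gene is called changed at an adjusted p under 0.05, after Benjamini-Hochberg adjustment over the 15418 genes tested. The labels number the samples of each group and do not tie a number to a culture or a hairpin, so a p-value reflects just the scatter among these 6 libraries, part of which may be technical. In bulk RNA, fewer cells of a type and less RNA per cell cannot be told apart.

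Some stimulus-responsive sites of immediate early genes lie in the stretch before the gene's start. Sites more than 250 bases upstream were not searched, so a site missing from a window can lie outside it. RefSeq windows of 250 bases upstream of a start (GRCm38.p6) were found for 31 of the 40 members. Fosl1, Egr1, Egr3, Klf10, Myc, Ier2, Arc, Dusp4 and Spry4 had none. In 20 of the 31, the RefSeq start lay within 100 bases of the gene's start in the deposited table. In 23, bases just after the RefSeq start were found in a GENCODE transcript of the gene. The windows of Ier3, Maff and Junb are shown because these had the largest fold changes among called members of at least 5 FPKM, and that of Fos because it is the founding immediate early gene. Those of Dusp1 and Dusp5 were chosen after the search, as examples with a cyclic AMP response element and with CArG boxes, the sites bound by SRF. Bases inside the gene model of the deposited table are left out of the printed sequences, but the motif counts below include them. Capitals mark the motifs searched, read 5′ to 3′ on the gene's strand.
Ier3 (chr17:35821463-35821683, plus strand): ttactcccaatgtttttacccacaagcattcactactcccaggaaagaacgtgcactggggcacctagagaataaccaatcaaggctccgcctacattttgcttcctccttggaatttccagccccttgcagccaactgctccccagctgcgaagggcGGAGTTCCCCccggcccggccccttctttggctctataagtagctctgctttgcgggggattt
Maff (chr15:79346371-79346620, plus strand): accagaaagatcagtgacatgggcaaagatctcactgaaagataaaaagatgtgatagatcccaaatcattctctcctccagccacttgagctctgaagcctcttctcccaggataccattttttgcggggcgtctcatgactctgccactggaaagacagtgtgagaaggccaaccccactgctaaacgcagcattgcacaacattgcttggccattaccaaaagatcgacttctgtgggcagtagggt
Junb (chr8:84978749-84978998, minus strand): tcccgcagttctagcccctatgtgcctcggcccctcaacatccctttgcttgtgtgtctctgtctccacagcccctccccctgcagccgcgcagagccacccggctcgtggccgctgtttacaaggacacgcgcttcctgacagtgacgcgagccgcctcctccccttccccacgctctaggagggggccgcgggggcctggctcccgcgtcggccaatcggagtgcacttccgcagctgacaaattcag
Fos (chr12:85473640-85473889, plus strand): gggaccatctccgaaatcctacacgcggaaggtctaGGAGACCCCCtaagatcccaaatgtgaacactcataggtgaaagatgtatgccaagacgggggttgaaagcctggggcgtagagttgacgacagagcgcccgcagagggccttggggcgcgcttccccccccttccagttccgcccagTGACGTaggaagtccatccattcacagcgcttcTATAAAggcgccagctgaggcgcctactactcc
Dusp1 (chr17:26508520-26508722, minus strand): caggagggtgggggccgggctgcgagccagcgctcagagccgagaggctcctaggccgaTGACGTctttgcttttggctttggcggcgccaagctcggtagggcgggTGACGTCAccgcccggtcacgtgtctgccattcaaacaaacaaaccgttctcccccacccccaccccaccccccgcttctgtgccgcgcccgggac
Dusp5 (chr19:53528895-53529108, plus strand): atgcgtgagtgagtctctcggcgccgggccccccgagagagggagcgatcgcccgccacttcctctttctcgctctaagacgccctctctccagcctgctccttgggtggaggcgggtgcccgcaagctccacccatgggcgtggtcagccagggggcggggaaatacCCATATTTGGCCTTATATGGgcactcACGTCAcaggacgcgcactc

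The capitals in the Ier3 window and the first capitals in the Fos window match an NF-kB site. In Fos they are followed by the core of a cyclic AMP response element, which begins 66 bases before the start, and by a TATA box. The Dusp1 window holds a core 191 bases and a full cyclic AMP response element 143 bases before the RefSeq start. The Dusp5 window holds CArG boxes side by side, 82 and 72 bases before the start, then a core on the opposite strand. No capitals appear in the Maff and Junb windows, which says only that these letters are not in these windows.

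Both strands of each window were searched for 8 motifs. The full cyclic AMP response element TGACGTCA occurred in 3 of 31 members (9.68%), against 1.55% of all 32851 RefSeq windows. Its core TGACGT, which the full element contains, occurred in 8 (25.8%), against 6.47% of all windows. The EGR site GCGNGGGCG occurred in 9 (29.0%), against 4.70%, and the CArG box in 2 (6.45%), against 1.47%. The NF-kB site occurred in 5 members (16.1%, against 7.25%) and TATAAA in 2 (6.45%, against 12.4%). The AP-1 site TGANTCA was in 0 of the 31 windows and in 6.75% of all windows, and the palindromic SMAD site GTCTAGAC was in 0 and in 0.167%. At so low a share, its absence from 31 windows says little, and shorter forms of the SMAD site were not searched. Several RefSeq windows can belong to 1 gene, and a match is a description of letters, not of binding. Among the members whose level fell, 6 of 19 windows held an EGR site and 6 of 19 the core, against 3 and 2 of the 12 other windows.

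**Figure D1:**
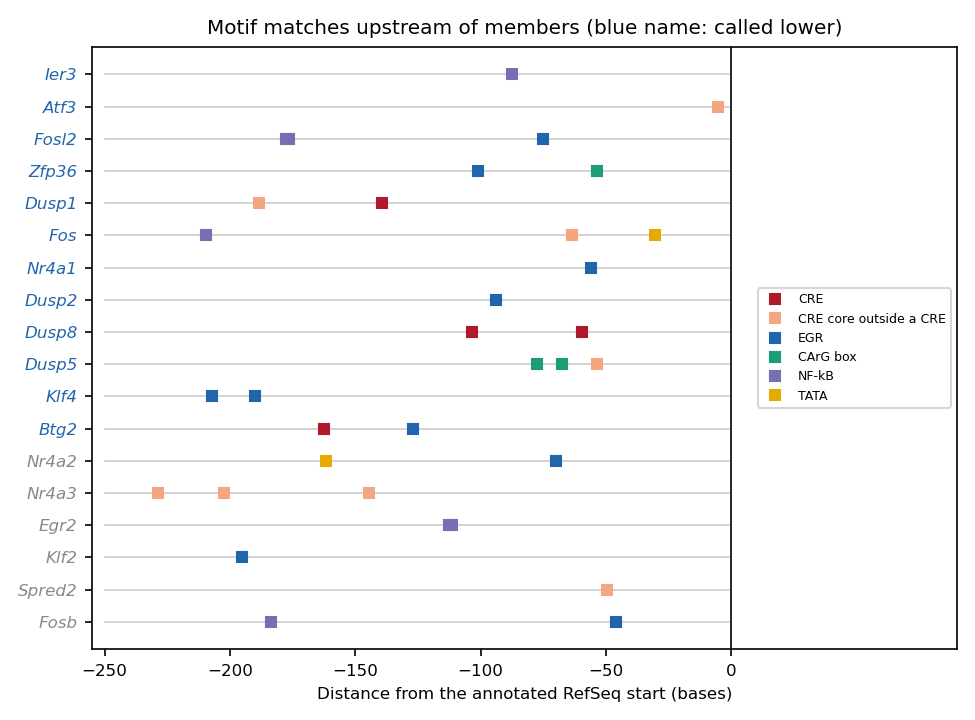
Motif matches in the 250 bases before the annotated RefSeq start (x axis, bases; 0 is the start) for the members with at least 1 match, ordered by fold change with the strongest fall at the top. Squares mark the middle of each match, coloured by motif. Blue names are members called lower. CRE is the cyclic AMP response element, drawn in 3 members, Dusp1, Dusp8 and Btg2.

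The immediate early and feedback genes were mostly lower in shGDF11 cells. The set was chosen with earlier results of these data known, so the shares over all genes are set beside it as description only. Of the 39 tested, 22 fell, 1 rose (Klf10) and 16 were not called. Over all 15418 genes tested, 27.6% were called, 13.1% lower and 14.4% higher. The median log2 fold change of the 39 was -0.39, beside 0.01 for all genes tested. In 6 members, Ier3, Maff, Junb, Fosl1, Atf3 and Fosl2, the fall reached 1 on the log2 scale, which 1.05% of all genes did. Rises of that size, seen in 1.5% of all genes, occurred in 0 members. The shGDF11 libraries all lay below the control libraries in 25 members, beside 22.2% of all genes, and all lay above them in 2, Klf10 and Dusp10, beside 23.7%. Library by library, the members' median difference from the control mean was -0.38, -0.39 and -0.39 in the shGDF11 libraries. In the control libraries it was 0.09, -0.06 and -0.03, values that are centred by construction because each control library is part of that mean. Without shGDF11 replicate 3, 15 members were lower. Of the 22, 15 kept their call when any 1 library was left out, as did Klf10. Rescaled to TPM, in which each library has the same sum and which moves the median of all genes to 0.09, 18 members were lower and 2 higher, while the calls over all genes turned from 2026 lower and 2227 higher to 1315 lower and 2577 higher.

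**Figure D2:**
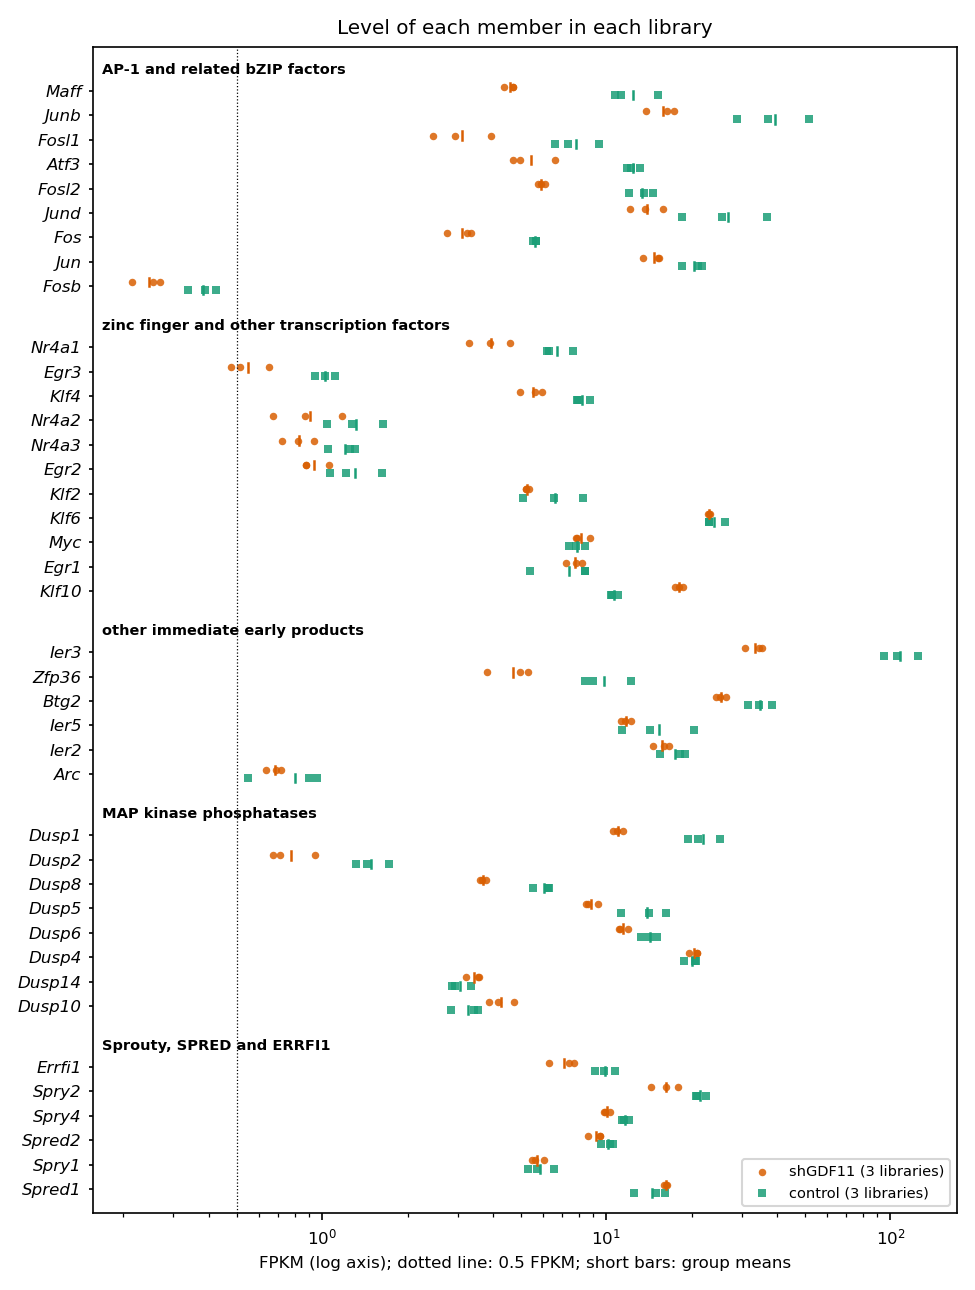
FPKM of each member in each library (log axis), by role. Circles are shGDF11 libraries, squares are control libraries, and short bars are group means (n = 3 each). The dotted line marks 0.5 FPKM, under which Fosb lies in each of the 6 libraries. In the first block, the circles lie left of the squares for each of the 9 genes.

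**Figure D3:**
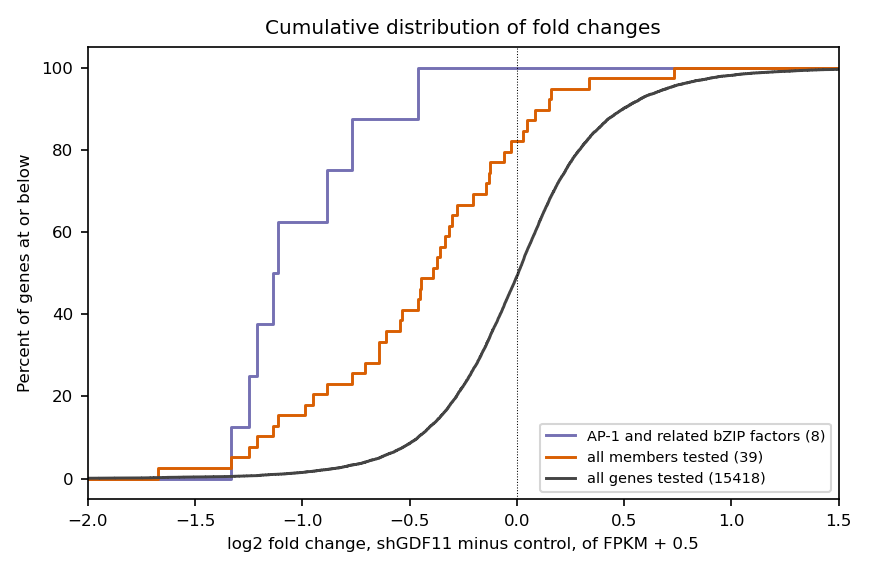
Share of genes (y axis, percent) with a log2 fold change at or below the value on the x axis, for the 8 tested AP-1 and related factors, the 39 tested members and the 15418 genes tested. The members' curve lies left of the curve of all genes over most of its length. The AP-1 curve ends at -0.46, the value of Jun.

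All 8 tested genes of the AP-1 and related bZIP factors fell, beside 13.1% of all genes, with a median log2 fold change of -1.13. These are the Fos and Jun families, the stress-induced factor Atf3 and the small MAF protein Maff, which lacks a transactivation domain. Maff (ENSMUSG00000042622, chromosome 15, 79346621 to 79359076 of GRCm38) had 4.69, 4.35 and 4.68 FPKM in the shGDF11 libraries, against 15.2, 11.3 and 10.8 FPKM in the control libraries. Control replicate 1 was the highest library, and the groups were well apart. The log2 fold change was -1.33 ± 0.13 (SE), at a limma adjusted p of 0.000921.

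Fosl2 (ENSMUSG00000029135, chromosome 5, 32135801 to 32157842) encodes the FOS family member FRA-2 and was the most precisely measured of them, with 909 to 2216 reads per library. It had 6.08, 5.73 and 5.88 FPKM in the shGDF11 libraries, against 14.6, 13.5 and 12.1 FPKM in the control libraries. The shGDF11 libraries were tight and far below each control library, and the log2 fold change was -1.11 ± 0.08 (SE, limma adjusted p = 0.000361). Fosl1, which encodes FRA-1, had 2.46, 2.93 and 3.92 FPKM in the shGDF11 libraries, against 9.47, 6.61 and 7.36 FPKM in the control libraries. Its groups did not overlap either, and its log2 fold change was -1.21 ± 0.18 (limma adjusted p = 0.00365). Ccdc85b lies on the opposite strand over 57.2% of the exon bases of Fosl1 and averaged 32.4 FPKM in shGDF11 and 49.7 FPKM in control. Use of the strand in counting is not given in the sources used here, so reads of the pair cannot be told apart.

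Junb encodes a JUN family member that activates less strongly than JUN. It had 17.3, 13.8 and 16.4 FPKM in the shGDF11 libraries, against 51.6, 37.2 and 28.9 FPKM in the control libraries. The control libraries were widely spread, yet the lowest of them lay above the highest shGDF11 library. The log2 fold change was -1.25 ± 0.20 (SE, limma adjusted p = 0.00497). Prdx2, at 93.7 FPKM in shGDF11 and 108 FPKM in control, lies on the opposite strand over 7.52% of the exon bases of Junb, and reads of that stretch cannot be told apart. Atf3 had 6.58, 4.99 and 4.69 FPKM in the shGDF11 libraries, against 13.2, 11.8 and 12.3 FPKM in the control libraries. Here the control libraries were close together, and the log2 fold change was -1.14 ± 0.12 (limma adjusted p = 0.00121).

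Fos, whose promoter is printed above, had 2.74, 3.35 and 3.24 FPKM in the shGDF11 libraries, against 5.55, 5.66 and 5.68 FPKM in the control libraries. It fell to 55.3% of control (log2 fold change -0.77, limma adjusted p = 0.0014), and its control libraries nearly coincided. Jun averaged 14.7 ± 1.07 FPKM in shGDF11 and 20.4 ± 1.71 FPKM in control (SD, n = 3 each, as for all such values), the smallest fold change of the list at -0.46. Jund, the JUN family member with the steadiest expression in most cells, had 13.6, 12.1 and 15.8 FPKM in the shGDF11 libraries, against 36.8, 25.5 and 18.4 FPKM in the control libraries. The control libraries of Jund differed among themselves by a factor close to the difference between the groups. Its log2 fold change of -0.88 had a limma adjusted p of 0.0303, which became 0.0841, 0.102 and 0.059 without shGDF11 replicate 1, 2 or 3, 0.0776 without control replicate 2 and 0.0791 with no filter on low values. Gm11175, an antisense gene with 0 FPKM in both groups, lies over 52.6% of the exon bases of Jund, and how reads of that stretch were assigned is not known, so the level of Jund is uncertain. Fosb was below the filter, at 0.246 ± 0.0273 FPKM in shGDF11 and 0.382 ± 0.0432 FPKM in control, from 22 to 43 reads per library, and was not tested.

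Of 11 tested zinc finger and other transcription factors, 3 fell, 1 rose and 7 were not called, with a median log2 fold change of -0.32. Among all genes tested, 13.1% were called lower and 14.4% higher. Nr4a1, an orphan nuclear receptor, had 4.58, 3.29 and 3.89 FPKM in the shGDF11 libraries, against 7.65, 6.27 and 6.17 FPKM in the control libraries. The groups did not overlap, and the log2 fold change was -0.71 ± 0.13 (SE, limma adjusted p = 0.00879). Klf4, a Krüppel-like factor also used in reprogramming to pluripotency, had 5.63, 5.93 and 4.98 FPKM in the shGDF11 libraries, against 8.79, 7.87 and 7.96 FPKM in the control libraries. Every control library lay above every shGDF11 library, with a log2 fold change of -0.54 ± 0.09 (limma adjusted p = 0.00487). Egr3 fell to 53.3% of control, at 0.547 ± 0.0903 FPKM in shGDF11 and 1.03 ± 0.0832 FPKM in control. Its log2 fold change of -0.55 (limma adjusted p = 0.0306) was -0.91 in limma voom on reads, which adds a smaller constant. The adjusted p of Egr3 was 0.0504, 0.0915 and 0.09 without shGDF11 replicate 1, 2 or 3 and 0.0715 and 0.0772 without control replicate 1 or 2. It was 0.0729 with no filter on low values and 0.0554 after rescaling to TPM.

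Klf10, also known as TIEG1, is a Krüppel-like repressor first found in human osteoblasts as a transcript induced early by TGF-beta. It was the 1 member that rose. Klf10 (ENSMUSG00000037465, chromosome 15, 38291463 to 38300706) had 18.1, 17.4 and 18.6 FPKM in the shGDF11 libraries, against 10.5, 10.4 and 11.0 FPKM in the control libraries. Both groups were tight and far apart, and the log2 fold change was 0.73 ± 0.06 (SE, limma adjusted p = 0.000467).

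Egr1, the best known zinc finger of the immediate early class, was not called. It had 8.25, 7.20 and 7.81 FPKM in the shGDF11 libraries, against 8.40, 8.45 and 5.39 FPKM in the control libraries. The shGDF11 libraries lay within the range of the control libraries, and the 95% interval of the log2 fold change was -0.31 to 0.48. Its sign turned when control replicate 3 was left out (-0.12). Myc, a growth-promoting transcription factor, averaged 8.16 ± 0.499 FPKM in shGDF11 and 7.88 ± 0.531 FPKM in control, with an interval of -0.13 to 0.23. Klf6 averaged 23.0 ± 0.234 FPKM in shGDF11 and 24.0 ± 1.84 FPKM in control, with an interval of -0.22 to 0.10.

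The other members of this list that were not called had lower means in shGDF11. Klf2, a factor induced by flow in endothelium, averaged 5.27 ± 0.0918 FPKM in shGDF11 and 6.62 ± 1.60 FPKM in control. Its limma adjusted p of 0.219 became 0.0316 without control replicate 3. Egr2 averaged 0.939 ± 0.103 FPKM in shGDF11 and 1.30 ± 0.292 FPKM in control, and its groups did not overlap. The nuclear receptor gene Nr4a2 averaged 0.908 ± 0.252 FPKM in shGDF11 and 1.32 ± 0.302 FPKM in control, with overlapping groups. Its relative Nr4a3 averaged 0.829 ± 0.105 FPKM in shGDF11 and 1.21 ± 0.135 FPKM in control, without overlap. Nr4a3 had a limma adjusted p of 0.0909, which was 0.0395 with no variance trend, 0.0431 with library weights and 0.0296 in limma voom.

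**Figure D4:**
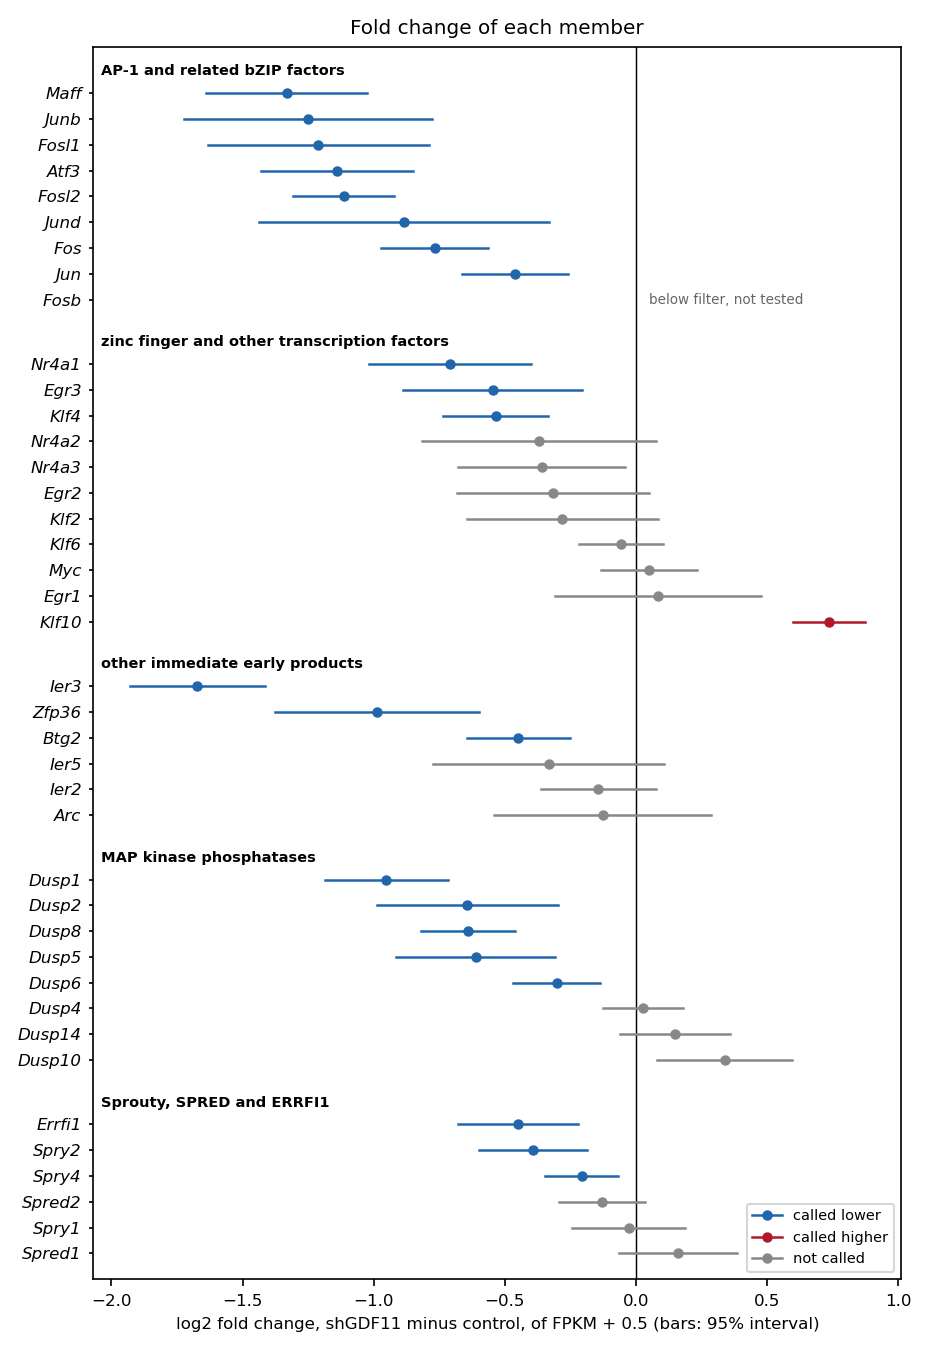
Log2 fold change of each member (x axis, shGDF11 minus control, FPKM + 0.5), by role. Points are limma estimates and bars their 95% intervals, which are not adjusted for the number of genes. Blue marks the 22 members called lower, red the 1 called higher and grey those not called. The falls reach from -0.21 in Spry4 to -1.67 in Ier3, and Klf10 stands at 0.73.

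Of the 6 other immediate early products, 3 fell, beside 13.1% of all genes, and their median log2 fold change was -0.39. Ier3 (ENSMUSG00000003541, chromosome 17, 35821684 to 35822923), also called IEX-1, encodes a small protein linked to cell survival that is a substrate of ERK. It had 34.4, 35.4 and 30.7 FPKM in the shGDF11 libraries, against 124.9, 95.1 and 105 FPKM in the control libraries. The lowest control library was far above the highest shGDF11 library. Its level fell to 30.9% of control, the largest fall among the members, and 37th from the bottom among all genes tested. The log2 fold change was -1.67 ± 0.11 (SE), at a limma adjusted p of 0.000279.

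Zfp36 encodes tristetraprolin, which binds AU-rich elements and speeds the decay of cytokine and immediate early mRNAs. It had 4.98, 3.82 and 5.29 FPKM in the shGDF11 libraries, against 12.2, 8.40 and 8.97 FPKM in the control libraries. The groups did not overlap, and the log2 fold change was -0.99 ± 0.16 (SE, limma adjusted p = 0.00591). Btg2, an antiproliferative protein that recruits the deadenylase complex, had 25.1, 24.4 and 26.5 FPKM in the shGDF11 libraries, against 38.5, 31.5 and 34.5 FPKM in the control libraries. The shGDF11 libraries were close together and below each control library, with a log2 fold change of -0.45 ± 0.08 (limma adjusted p = 0.00866).

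Ier2, Ier5 and Arc were not called, and their groups overlapped. Ier2, a nuclear protein, averaged 15.7 ± 1.05 FPKM in shGDF11 and 17.5 ± 1.82 FPKM in control. Ier5, a regulator of the heat shock factor HSF1, had 12.2, 11.7 and 11.3 FPKM in the shGDF11 libraries, against 20.3, 14.2 and 11.4 FPKM in the control libraries. Control replicate 3 was level with the shGDF11 libraries, and without it the limma adjusted p fell to 0.0468, against 0.225 with all libraries. Arc, a synaptic protein known from neurons, averaged 0.682 ± 0.0416 FPKM in shGDF11 and 0.803 ± 0.221 FPKM in control, from 28 to 46 reads per library.

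Of the 8 MAP kinase phosphatases, 5 fell, beside 13.1% of all genes, with a median log2 fold change of -0.46. Dusp1, the nuclear phosphatase MKP-1 that acts mainly on p38 and JNK, had 10.6, 11.0 and 11.4 FPKM in the shGDF11 libraries, against 25.2, 19.4 and 21.0 FPKM in the control libraries. It fell to 50.3% of control without overlap, with a log2 fold change of -0.95 ± 0.10 (SE, limma adjusted p = 0.0011). Dusp8, a phosphatase of JNK and p38, had 3.60, 3.66 and 3.78 FPKM in the shGDF11 libraries, against 6.31, 5.54 and 6.23 FPKM in the control libraries. Each control library was at least 5.54 FPKM and no shGDF11 library reached 4, and the log2 fold change was -0.64 ± 0.08 (limma adjusted p = 0.00163).

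Dusp5, a nuclear phosphatase specific for ERK, had 8.66, 9.33 and 8.50 FPKM in the shGDF11 libraries, against 16.3, 11.3 and 14.1 FPKM in the control libraries. The control libraries of Dusp5 were spread but stayed above the shGDF11 libraries, and the log2 fold change was -0.61 ± 0.13 (SE, limma adjusted p = 0.0136). An antisense gene that is not in the deposited table lies over 22.1% of its exon bases. Dusp6, the cytoplasmic ERK phosphatase MKP-3, averaged 11.4 ± 0.482 FPKM in shGDF11 and 14.2 ± 0.911 FPKM in control (log2 fold change -0.30, limma adjusted p = 0.0193). Dusp2, the nuclear phosphatase PAC-1, averaged 0.775 ± 0.146 FPKM in shGDF11 and 1.49 ± 0.205 FPKM in control (log2 fold change -0.64, limma adjusted p = 0.0181), from 22 to 54 reads per library.

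The count of 5 rested on single libraries, whereas Dusp1 and Dusp8 kept their call in each such fit. The omission of shGDF11 replicate 2 gave 3, that of shGDF11 replicate 3 gave 2 and that of control replicate 2 gave 3. The limma adjusted p of Dusp2 was then 0.0654, 0.0615 and 0.05 (not under the threshold), and 0.0562 with no filter on low values. That of Dusp6 was 0.0783, 0.0718 and 0.0568, and 0.147 after rescaling to TPM. That of Dusp5 was 0.053 without shGDF11 replicate 3.

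Dusp10, Dusp4 and Dusp14 were not called. Dusp10, the phosphatase MKP-5 of p38 and JNK, had 4.74, 3.87 and 4.18 FPKM in the shGDF11 libraries, against 3.43, 2.84 and 3.55 FPKM in the control libraries. Its groups did not overlap, with shGDF11 above control, and its log2 fold change of 0.34 had a limma adjusted p of 0.0591. The adjusted p was 0.03 after rescaling to TPM, 0.0213 with library weights and 0.036 with the trend on gene length removed. Dusp4, the nuclear phosphatase MKP-2, averaged 20.4 ± 0.753 FPKM in shGDF11 and 20.0 ± 1.08 FPKM in control, with a 95% interval of the log2 fold change of -0.13 to 0.18. Dusp14, an atypical dual-specificity phosphatase, averaged 3.44 ± 0.203 FPKM in shGDF11 and 3.05 ± 0.254 FPKM in control, with an interval of -0.06 to 0.36.

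Of the 6 receptor and RAS pathway inhibitors, 3 fell, beside 13.1% of all genes, with a median log2 fold change of -0.17. Errfi1, the inhibitor of EGF receptor family kinases also called MIG6, had 7.68, 6.31 and 7.41 FPKM in the shGDF11 libraries, against 10.7, 9.13 and 9.86 FPKM in the control libraries. It did not overlap between the groups and had a log2 fold change of -0.45 ± 0.10 (SE, limma adjusted p = 0.0147). Spry2 had 16.2, 17.9 and 14.4 FPKM in the shGDF11 libraries, against 20.7, 22.4 and 20.9 FPKM in the control libraries. Its groups were apart by a small margin, with a log2 fold change of -0.39 ± 0.09 (limma adjusted p = 0.0169). Spry4 had 9.92, 10.3 and 9.82 FPKM in the shGDF11 libraries, against 11.4, 11.5 and 12.1 FPKM in the control libraries. Both groups of Spry4 were tight, and the log2 fold change was -0.21 ± 0.06 (limma adjusted p = 0.0391).

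Errfi1 alone of these 3 kept its call in each fit without 1 library. The count was 1 without shGDF11 replicate 1, shGDF11 replicate 3 or control replicate 2. The limma adjusted p of Spry2 was then 0.0552, 0.0502 and 0.0581, and 0.0692 after rescaling to TPM. That of Spry4 was 0.118, 0.089 and 0.127 without shGDF11 replicate 1, 2 or 3, and 0.0847 and 0.0891 without control replicate 2 or 3. Without the filter on low values it was 0.0523, and it was 0.33 after rescaling and 0.0618 with no variance trend.

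Spry1, Spred1 and Spred2 were not called. Spry1 averaged 5.71 ± 0.279 FPKM in shGDF11 and 5.86 ± 0.648 FPKM in control, with a 95% interval of the log2 fold change of -0.24 to 0.19. Spred1, which binds neurofibromin, averaged 16.2 ± 0.213 FPKM in shGDF11 and 14.6 ± 1.86 FPKM in control, and its groups overlapped. Spred2 averaged 9.24 ± 0.508 FPKM in shGDF11 and 10.2 ± 0.483 FPKM in control. The groups of Spred2 did not overlap, by a narrow margin.

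Control replicate 1 stood out in this gene set. It was the highest control library for 25 of the 39 members, which it was for 39.2% of all genes tested. Control replicate 3 was the highest for 9 (34.7% of all genes) and control replicate 2 for 5 (26.1%). The relative spread (SD over mean) was larger in control than in shGDF11 for 26 members, beside 66.8% of all genes. Without control replicate 1, 21 members were lower and 1 was higher. Genes of ribosomal RNA took 0.47% to 0.502% of reads in the shGDF11 libraries and 0.298% to 0.319% in the control libraries. A read was found for 24913 to 25324 genes in the shGDF11 libraries and 24117 to 24710 in the control libraries, and the part of either in the results was not tested. The members are short genes: the median span was 6063 bases, against 23872 for the protein-coding genes tested, and they had a median of 4 exon blocks against 9. The part of span or exon number in the falls was not tested. The trend on gene length removed in an alternative fit was on exon length, not on span. Median exon length was 3053 bases in the members and 4326 in the protein-coding genes tested, and in that fit 22 members were lower.

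Most of the kinases and adaptors that lead to these genes were not called, as was the case for most genes. Over all genes tested, 27.6% were called, 13.1% lower and 14.4% higher. Of 25 tested components of the ERK cascade, 1 was lower and 5 were higher, with a median log2 fold change of 0.03. Rasa1, a RAS GTPase-activating protein, averaged 16.7 FPKM in shGDF11 and 9.48 FPKM in control (log2 fold change 0.79). The other rises were those of the receptor gene Erbb2 (0.56), the phosphatase gene Ptpn11 (0.48), the RAS exchange factor gene Sos1 (0.64) and the RAS inhibitor gene Nf1 (0.40). The call of Nf1 (limma adjusted p = 0.045) was lost without shGDF11 replicate 1, 2 or 3 or control replicate 2 (adjusted p of 0.107, 0.13, 0.111 and 0.0688). It was also lost with no filter on low values (0.103), no variance trend (0.0594) and after rescaling to TPM (0.0522). Map2k1, which encodes the ERK kinase MEK1, was lower by limma (-0.32), a call lost without shGDF11 replicate 2 or 3 (adjusted p of 0.0592 and 0.0581) and in TPM (0.0632). Nf1 and Map2k1 were named after their values were seen.

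Of 18 components of the JNK and p38 cascades, 3 were lower and 1 was higher, with a median of -0.02. Mapkapk2, a kinase downstream of p38, averaged 37.9 FPKM in shGDF11 and 63.4 FPKM in control (log2 fold change -0.72), and the kinase gene Rps6ka4 (MSK2) had a log2 fold change of -0.52. Map3k7, which encodes the TGF-beta activated kinase TAK1, had 30.2, 29.1 and 28.8 FPKM in the shGDF11 libraries, against 15.6, 18.9 and 19.5 FPKM in the control libraries (0.70). The call of Map2k4 (-0.35, limma adjusted p = 0.0249) was lost in 5 of the 6 fits without 1 library, all but that without control replicate 1, with adjusted p of 0.0598 to 0.084.

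Among 19 transcriptional regulators that act on immediate early promoters, 3 were lower and 4 higher, with a median of 0.04. Mef2a averaged 24.8 FPKM in shGDF11 and 13.7 FPKM in control (log2 fold change 0.84). Elk4, a ternary complex factor (-0.33), Atf1 (0.50) and the CREB coactivator gene Crtc2 (-0.42) were also called. Their calls were lost without shGDF11 replicate 2 or 3 (limma adjusted p of 0.0586 and 0.0577 for Elk4, 0.0741 and 0.0513 for Atf1, 0.0925 and 0.0683 for Crtc2), and those of Atf1 and Crtc2 also without shGDF11 replicate 1 (0.0574 and 0.0559) or control replicate 2 (0.0608 and 0.0632). The remaining calls, named after their values were seen, were Stat3 (0.18) and Mkl2 (0.41), higher, and Mkl1 (-0.28), lower. Stat3 kept its call only without control replicate 1 among the fits that left out 1 library, with adjusted p of 0.0574 to 0.116 in the others. Mkl1 lost its call in each of those 6 fits (0.0572 to 0.161). Mkl2 lost its call without shGDF11 replicate 2 or 3 (0.119 and 0.115) or control replicate 1 or 3 (0.0729 and 0.0734). The counts fell to 0 lower without shGDF11 replicate 2 or 3 and to 1 lower without shGDF11 replicate 1 or control replicate 2. They fell to 1 higher without shGDF11 replicate 2 or 3 and to 2 higher without shGDF11 replicate 1, control replicate 2 or control replicate 3. Srf was not called, with a log2 fold change of -0.38 and a limma adjusted p of 0.0839, which was 0.0168 without control replicate 3, 0.0339 with library weights and 0.0229 in limma voom.

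Of 6 tested ligands of the EGF receptor family, 2 fell, 1 rose and 3 were not called, beside 13.1% lower and 14.4% higher among all genes. Hbegf, itself an immediate early gene whose product is a heparin-binding EGF-like ligand, had 7.77, 7.93 and 8.44 FPKM in the shGDF11 libraries, against 30.5, 23.0 and 27.7 FPKM in the control libraries. Its groups were far apart, and its log2 fold change of -1.68 (limma adjusted p = 0.000279) was close to that of Ier3. Ereg, the epiregulin gene, fell (log2 fold change -0.86), and Tgfa, the TGF-alpha gene, rose (0.88).

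Of 14 further feedback genes, 5 fell and 1 rose, beside 13.1% and 14.4% of all genes, with a median of -0.12. The falls included the phosphatase genes Dusp9 (log2 fold change -1.20), Dusp3 (-0.71) and Dusp16 (-0.54) and Zfp36l2 (-0.65), a relative of Zfp36. The fifth was Btg1, a relative of Btg2, and the rise was Dusp7, both named after their values were seen. The call of Dusp7 was lost without shGDF11 replicate 2 or 3 or control replicate 2 (limma adjusted p of 0.0799, 0.0635 and 0.0558). Of 11 bZIP genes whose products partner AP-1, 10 were not called and Jdp2, a repressor of AP-1, was higher (0.46, limma adjusted p = 0.0358). Leaving out shGDF11 replicate 1, 2 or 3 or control replicate 2 or 3 ended that call (adjusted p of 0.0894, 0.0826, 0.114, 0.104 and 0.0793).

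In a list of immediate early genes outside the 40, most were lower too. The list was chosen with earlier results of these data known, so it is not independent support for the members' result. Of 24 tested, 16 were lower, beside 13.1% of all genes, and 8 not called, with a median log2 fold change of -0.40. Ptgs2, which encodes cyclooxygenase-2, had 1.85, 1.87 and 1.96 FPKM in the shGDF11 libraries, against 6.49, 7.83 and 7.86 FPKM in the control libraries, a log2 fold change of -1.72 (limma adjusted p = 0.000187). Its control libraries were all more than 3 times any shGDF11 library. The salt-inducible kinase gene Sik1 (-1.26), the matricellular protein gene Ctgf (-1.21) and the NF-kB regulator gene Nfkbiz (-0.92) also fell. Gm15270 lies antisense over 23.2% of the exon bases of Ctgf. The count was 9 without shGDF11 replicate 1 and 10 without shGDF11 replicate 3.

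Most listed genes known to respond downstream of ERK and AP-1 were also lower. This list, too, was chosen with earlier results of these data known. Of 18 tested, 13 fell and 1 rose, beside 13.1% and 14.4% of all genes, with a median of -0.48. Spp1, the osteopontin gene, averaged 50.5 FPKM in shGDF11 and 110.0 FPKM in control (log2 fold change -1.11). The urokinase receptor gene Plaur (-0.88), the cytokine gene Lif (-0.83) and the hyaluronan receptor gene Cd44 (-0.54) fell as well. Mmp3, a matrix metalloproteinase gene named after its values were seen, rose (0.37), but lost its call without shGDF11 replicate 1 or 2 (limma adjusted p of 0.0532 and 0.0531).

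Heat shock genes encode chaperones induced by protein-damaging stress. Their list, like every list here, was chosen with earlier results of these data known. Of 10 heat shock genes tested 6 were lower, beside 13.1% of all genes, with a median of -0.31. Hspa1a averaged 1.48 FPKM in shGDF11 and 7.36 FPKM in control, and Hspa1b 4.38 FPKM in shGDF11 and 14.8 FPKM in control. These are near-identical copies whose reads can be split between them. Dnajb1 had a log2 fold change of -0.46 and Bag3 of -0.37. The call of Bag3 (limma adjusted p = 0.0196) was lost without shGDF11 replicate 1, 2 or 3 or control replicate 2 (0.069, 0.0725, 0.0539 and 0.0612), and the list's count was 3 without shGDF11 replicate 1, 2 or 3. The part of a stress response in the results for the members was not tested.

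**Figure D5:**
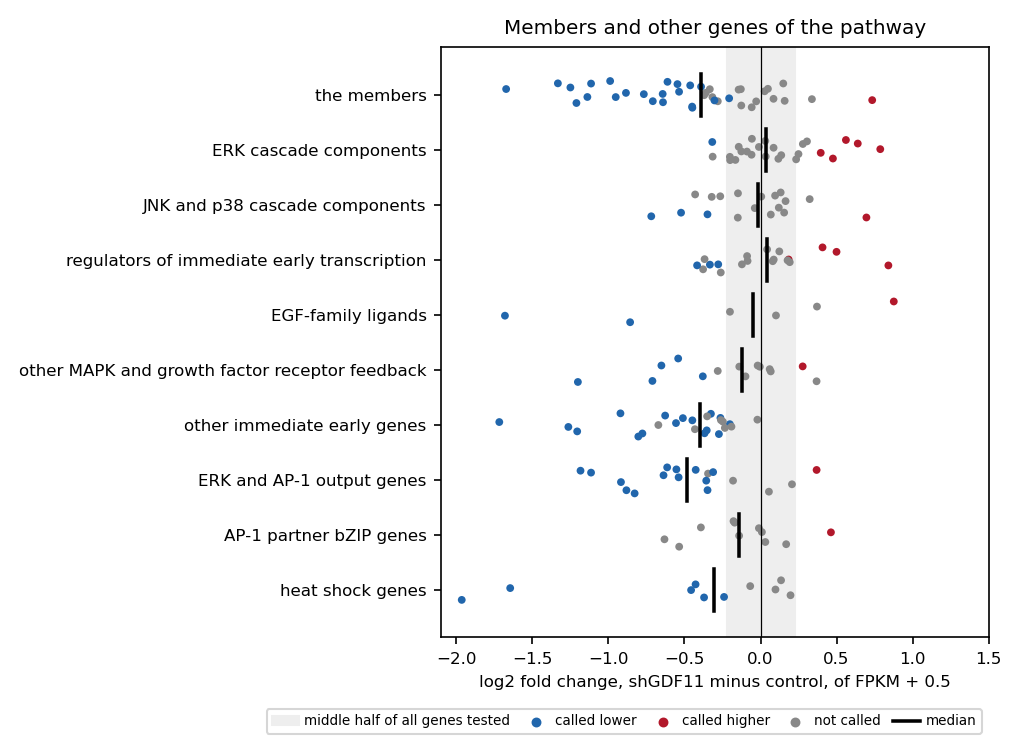
Log2 fold changes (x axis, shGDF11 minus control, FPKM + 0.5) of the tested members and of 9 further lists of the pathway. Each point is a gene, blue where called lower, red where called higher and grey where not called. Black bars are medians, and the grey band runs from the lower to the upper quartile of all genes tested (-0.22 to 0.23). The members, the other immediate early genes and the output genes have medians left of the band, as do the heat shock genes, and the kinase lists have medians inside it.

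Markers of some other cells of the neonatal heart were lower beside the members. The counts below are to be read beside 13.1% of all genes called lower and 14.4% called higher. The summed level of 7 endothelial markers was 45.3 to 48.7 FPKM in the shGDF11 libraries and 65.5 to 70.3 FPKM in the control libraries, and 5 of 7 were called lower. For 7 smooth muscle and pericyte markers the sums were 66.8 to 67.4 FPKM in shGDF11 and 85.4 to 91.5 FPKM in control, with 4 of 7 lower. For 8 macrophage markers they were 124 to 135 FPKM in shGDF11 and 159 to 182 FPKM in control, with 3 of 7 tested lower. The 8 fibroblast markers summed to 368 to 386 FPKM in shGDF11 and 291 to 346 FPKM in control, with 2 of 8 called higher. The 5 epicardial markers summed to 14.8 to 17.5 FPKM in shGDF11 and 17.3 to 20.6 FPKM in control, with 1 lower and 1 higher. The 10 cardiomyocyte markers summed to 6584 to 7006 FPKM in shGDF11 and 6624 to 8235 FPKM in control, with 4 lower and 2 higher. Only control replicate 1 lay above the shGDF11 range. The 6 erythroid markers were below the filter. The part of these cells in the results for the members was not tested.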

How the data were processed

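RNA was sequenced on an Illumina HiSeq X system, per the labels' protocols. The deposited table holds FPKM values, which the authors scaled by gene length and library depth. HISAT2 2.0.5, featureCounts 1.5.0-p3 and CASAVA 1.8 are named in the submitters' processing notes, as are GRCm38 and mm10. Which annotation release and strand setting were used is not given in the sources used here. The coordinates of 37 of the 40 members were the same in GENCODE vM21 of GRCm38.

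FPKM times gene length was a whole number of reads, within 0.05, for 100% of positive values. Listed genes held 96.9% to 97.6% of the reads that the scaling implies, and 3 reads, taken as the floor, are worth 0.18 to 0.191 FPKM for a gene of 1 kb (counting error only). Genes averaging 0.5 FPKM or more entered a limma 3.58.1 fit (R 4.3.3) of log2(FPKM + 0.5) (eBayes with a variance trend, two-sided, all 6 libraries, no covariate), and p-values were Benjamini-Hochberg adjusted over all genes tested. Because the unit is FPKM, a count test was only an alternative: limma voom on the recovered reads called 2525 genes lower and 2562 higher. Other alternatives were the pseudocount, filter, scaling, variance model, library weights, gene length trend, a replicate block and leaving out each library.

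The members and gene lists were chosen with earlier results of these data known, and no test was made over a list. Values of every library are given for the 3 members with the smallest p in each role and for called members with a fold change of at least 1 on the log2 scale. Fos, Jund, Egr1, Ier5 and Dusp10 were added after their values were seen, as was the cyclic AMP response element core among the motifs. From each further list, up to 4 called genes with the smallest p are named. Same-numbered libraries of the groups did not deviate together (r = 0.02, 0.01 and -0.05 across genes), so the numbers were not treated as pairs.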

Additional observations from a re-analysis of the deposited data

How the results depend on the processing

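Over 17 alternatives, 15 to 23 members were lower, and the directions of the called members held in each. Without 1 library each in turn, the counts ran over these ranges: all genes 1072 to 1992 lower and 1256 to 2241 higher; members' median -0.47 to -0.37; phosphatases 2 to 5 lower; Sprouty, SPRED and Errfi1 1 to 3 lower; ERK cascade 0 to 1 lower; JNK and p38 cascades 1 to 2 higher; transcriptional regulators 0 to 4 lower and 1 to 4 higher; further feedback genes 0 to 1 higher; other immediate early genes 9 to 15 lower; output genes 0 to 1 higher; AP-1 partners 0 to 1 lower and 0 to 1 higher; heat shock genes 3 to 5 lower and 0 to 1 higher. With a pseudocount of 0.1, the members' median was -0.47, with 2 ERK cascade genes lower and 2 feedback genes higher. With no filter, 1 regulator and 1 AP-1 partner were lower and 0 partners higher. The filter at a mean of at least 5 FPKM left 7798 genes in the test, without Dusp2 and Dusp8. In that fit 1474 genes were higher, 3 phosphatases, 1 ligand and 7 output genes lower and 0 ligands higher. Rescaled to TPM, 1315 genes were lower, 2 members, 1 phosphatase and 2 JNK and p38 genes higher, and 1 Sprouty-type and 0 ERK cascade genes lower. Median ratio scaling put 2 ERK cascade genes lower. With no variance trend, 2 ERK cascade genes were lower and 2 regulators, 2 ligands, 2 feedback genes and 0 AP-1 partners higher. With library weights, 2 members, 1 phosphatase, 2 JNK and p38 genes and 1 heat shock gene were higher, and 2 ERK cascade genes and 5 regulators lower. In limma voom, the members' median was -0.48. There, 2 ERK cascade genes, 5 JNK and p38 genes, 6 regulators and 2 AP-1 partners were lower, and 8, 2, 2 and 2 of the ERK cascade, JNK and p38, ligand and feedback genes and 1 heat shock gene higher. With the length trend removed, 2 members, 1 phosphatase higher and 2 ERK cascade genes lower were counted. Apart from genes that a filter took out of the test or brought into it, the cause of these differences was not tested.

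With the replicate number as a block, 19 members were lower and 1 was higher, and 0 feedback, 0 output and 0 AP-1 partner genes were higher and 1 partner lower. The block took the limma adjusted p of Egr3 to 0.0678, of Dusp6 to 0.0594, of Spry4 to 0.105, of Jdp2 to 0.0605, of Nf1 to 0.0595, of Mkl1 to 0.0964, of Stat3 to 0.106, of Dusp7 to 0.0582 and of Mmp3 to 0.0514. Signs turned for members that were not called: Klf6 to 0.032 and Spry1 to 0.059 in TPM, and Arc to 0.026 and Spry1 to 0.044 with library weights. Without 1 library, the log2 fold change ran from -0.12 to 0.19 for Egr1, -0.089 to 0.0033 for Klf6, -0.018 to 0.057 for Dusp4 and -0.092 to 0.051 for Spry1. Across all genes, the block left 1568 lower and 1655 higher. Depth limits Fosb, Arc, Egr3 and Dusp2, which had 22 to 77 reads per library, and 3 samples a group limit every interval.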
